A study of Rattus norvegicus with 180 samples.

Results

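miR-15b, miR-16, miR-195 and miR-497 are the guide strands of a family of microRNAs that share a seed, the run of bases 2 to 8 with which a microRNA pairs with its target transcripts. The 4 members were chosen by name (rno-miR-15b, rno-miR-16, rno-miR-195 and rno-miR-497 on the array) out of 717 miRNAs of the array design. miR-15b and miR-16 are encoded together in one cluster, and miR-195 and miR-497 in another. Members of the family are known for repressing cell cycle and survival genes such as cyclins and Bcl2, and miR-195 and miR-497 are known from heart and skeletal muscle that have left the cell cycle. Since the seed is shared, the organs were compared for which of the clusters supplies it.

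All samples came from male Sprague-Dawley rats aged 10 weeks, 6 in all, with no treatment other than the sampling condition. Rats 4, 5 and 6 were perfused with saline to wash blood out of the vessels, and 55 organs and tissues were taken from each, on 1 array per organ and rat. From rats 1, 2 and 3, which were not perfused, only liver, kidney, lung, heart_atrium and heart_interventricular septum were taken (15 arrays). By the study's methods the 6 intestinal samples (duodenum, jejunum, ileum, cecum, colon and rectum) were mucosal epithelium scraped off the gut and not the whole wall, and the liver was its left lateral lobe. Total RNA was labelled with Cy3 and hybridised to 1-colour arrays, so each value is an average over all the cell types of the tissue taken. Organ names are those of the labels, and 8 arrays carried 2 rat numbers in their labels and were kept under the number in the title.

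The mature sequences are shown to let the shared seed, in capitals, be compared with the bases that tell the members apart. They were taken from RefSeq (build GRCr8, 5′ to 3′), where all 4 members matched.
miR-15b: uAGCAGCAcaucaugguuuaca
miR-16: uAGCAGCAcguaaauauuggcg
miR-195: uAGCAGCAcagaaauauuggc
miR-497: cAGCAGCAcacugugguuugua
miR-322: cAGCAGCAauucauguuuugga
miR-503: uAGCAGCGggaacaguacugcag
Of the 724 mature sequences in the table, 5 had the same bases 2 to 8, namely the 4 members and miR-322, whereas those of miR-503 are not the same. miR-15b lies at chr2:155555197-155555218 and miR-16 at chr2:155555343-155555364, both on the plus strand, with 124 bases between the mature sequences. Both fall inside the span of Smc4, the gene of a condensin subunit that works in chromosome condensation. miR-497 (chr10:55450172-55450193) and miR-195 (chr10:55450509-55450529) are also on the plus strand, 315 bases apart, and no other gene of the annotation spanned the pair. miR-322 lies at chrX:137726198-137726219 on the minus strand. Outside the seed, likeness does not follow the clusters. After position 8, miR-16 and miR-195 were identical at 11 of 13 positions and miR-15b and miR-497 at 9 of 14, compared with 6 of 14 for miR-15b and miR-16 and 5 of 13 for miR-195 and miR-497. Over the whole sequences miR-16 and miR-195 were identical at 19 of 21. The part of cross-hybridisation between these members in the signals below was not tested.

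Between 86 and 244 miRNAs were detected per array, and no miRNA spot was saturated (0 in all). Detection here means that more than 50% of the spots carrying a miRNA had the scanner's flag for a signal clearly over background. miR-16 was detected on 180 of 180 arrays, miR-497 on 179, miR-15b on 178 and miR-195 on 177, and every array without detection was of the pancreas. The pancreas arrays were the dimmest of the 55 organs, with a 75th percentile of 68.0 to 121 before scaling, compared with 336 to 6343 for the other perfused arrays. Each member was read by 2 probe sequences, whose log2 signals correlated at 0.967 (miR-497) to 0.991 (miR-15b) over 180 arrays. Marker miRNAs were highest where the labels place them, such as miR-122 in the liver, miR-217 in the pancreas, miR-124 in the cerebellum, miR-142-3p in the thymus and miR-451 and miR-223 in bone marrow. miR-16 was also one of the 37 miRNAs whose 75th percentile set the scale of each array, and on 7 arrays it was itself that percentile.

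miR-15b, a member of the cluster inside Smc4, was high in lymphoid organs, the testis and the intestine and low in the brain. In the thymus its signal was 6978, 7041 and 6847 in rats 4, 5 and 6, and in the testis it was 5308, 5727 and 6368. In the cerebellum it was 123, 133 and 91.1 and in the cerebrum_cerebral cortex 119, 124 and 115. The 3 thymus arrays lay above all 162 other perfused arrays. The mean of the thymus was 60.1 times that of the cerebellum. Relative to the mean of the other 54 organs, miR-15b differed in limma by 3.69 on the log2 scale (SE 0.16, adjusted p = 3.11e-44) in the thymus, and by -2.34 on the log2 scale (SE 0.16, adjusted p = 1.17e-27) in the cerebellum. The testis (3.42) and the lymph node - mesenteric (3.16) followed at the top, and the cerebrum_cerebral cortex (-2.28) and cerebrum_thalamus (-1.83) at the bottom, all past an adjusted p of 0.05. With the 75th percentile over all miRNAs the testis was at 2.12 and the cerebrum_thalamus at -3.22.

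Over all 55 organs, miR-15b ran from 116 to 6955 with a median of 448, in arbitrary units of scaled signal. Among the lymphoid or hematopoietic organs, its mean signal ± SD over 3 rats was 6955 ± 99 in the thymus, 4902 ± 1167 in the lymph node - cervical, 4840.4 ± 409 in the lymph node - mesenteric, 3292 ± 345 in the spleen and 646 ± 415 in bone marrow. Among the intestinal organs it was 2378 ± 166 in the jejunum, 2208 ± 385 in the duodenum, 1994 ± 411 in the ileum, 1298 ± 72.9 in the cecum, 1164 ± 393 in the colon and 1114 ± 239 in the rectum. Among the reproductive organs it was 5801 ± 534 in the testis, 958 ± 62.8 in the epididymis, 866 ± 164 in the prostate_ventral, 852 ± 123 in the seminal vesicle and 465 ± 99 in the prostate_other. The rats of bone marrow, at 1114, 498 and 325, spread more widely than those of any other organ (CV 64.2%, median over organs 10.8%), and its place in the order is uncertain.

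Among the glands, miR-15b was 622 ± 116 in the mandibular gland, 554 ± 21.5 in the pituitary gland, 504 ± 15.6 in the thyroid gland, 436 ± 16.6 in the sublingual gland, 392.02 ± 53.3 in the harderian gland, 349.9 ± 35.1 in the parotid gland, 306 ± 21.5 in the adrenal gland and 178 ± 60.2 in the pancreas. In the nervous system it was 458 ± 22.6 in the eyeball, 431 ± 35.1 in the optic nerve, 374 ± 43.5 in the spinal cord_cervical, 373 ± 12.4 in the spinal cord_pars lumbalis, 357 ± 43.5 in the spinal cord_pectoral, 352 ± 44.1 in the ischial nerve, 307 ± 30.1 in the medulla oblongata, 207 ± 71.8 in the cerebrum_hippocampus, 163 ± 25.7 in the cerebrum_thalamus, 119 ± 4.64 in the cerebrum_cerebral cortex and 116 ± 22 in the cerebellum. In the pancreas miR-15b was detected in 1 of 3 rats, so its mean and its place in the order are uncertain. The brain samples other than the medulla oblongata lay under the spinal cord samples, and the cerebrum_cerebral cortex and the cerebellum overlapped.

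Of the muscle system, which in the sorting of organs used by the study also holds skin, vessels, bladder and stomach, miR-15b was 862 ± 123 in the stomach_glandular, 565 ± 97.7 in skin, 508 ± 183 in the esophagus, 448 ± 68 in the vein, 366 ± 12.1 in the interseptum, 365 ± 27.2 in the stomach_anterior, 344 ± 36.3 in the femoris muscle, 329.8 ± 38.9 in the bladder, 325 ± 35 in the tongue, 314 ± 21.8 in the gastrocnemial muscle, 301 ± 43.6 in the heart_atrium, 297 ± 23.7 in the soleus muscle, 285 ± 12.2 in the heart_interventricular septum and 218 ± 92.5 in the aorta. In the organs outside these systems it was 581 ± 36.1 in the liver, 479.8 ± 30.6 in white adipose tissue, 476 ± 32.5 in the lung, 457 ± 62.4 in the kidney, 439.8 ± 37.7 in the trachea and 414 ± 48.6 in brown adipose tissue. The muscles of limb and heart lay within a narrow range, and the stomach_glandular stood above the other organs of this system. Of 54 pairs of neighbours in the order of means, 5 had no overlap between rats, which were thymus and testis, lymph node - mesenteric and spleen, spleen and jejunum, ileum and cecum, and cerebrum_thalamus and cerebrum_cerebral cortex. The other 49 neighbours did not differ beyond the spread of the 3 rats.

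miR-16, the cluster partner of miR-15b, was also highest in the thymus, followed by bone marrow, the lymph nodes, the testis and the spleen. Its signal was 10801, 11291 and 9159 in the thymus and 7707, 6729 and 8811 in bone marrow. At the other end it was 520.5, 419 and 514 in the pancreas and 637, 662 and 778 in the cerebrum_thalamus. The 3 thymus arrays again lay above all 162 others. The range was smaller than that of miR-15b, with a highest mean 21.5 times the lowest. In limma, miR-16 differed from the mean of the other organs by 2.65 on the log2 scale (SE 0.12, adjusted p = 1.66e-42) in the thymus, by 2.21 in bone marrow, by 1.83 in the lymph node - mesenteric, by -1.01 in the parotid gland, by -1.34 in the cerebrum_thalamus and by -1.86 on the log2 scale (SE 0.12, adjusted p = 5.93e-30) in the pancreas. The sizes at this lower end depended on the processing. In the pancreas the difference was -4.54 with the 75th percentile over all miRNAs, -3.82 in the authors' values, -3.68 with quantile normalisation and -0.67 with a normexp background. In the cerebrum_thalamus it was -2.72 and -2.54 with the first pair of these scalings, and in the parotid gland -0.48 with normexp.

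The organ means of miR-16 ran from 484 to 10417 with a median of 1502. Among the lymphoid or hematopoietic organs, its mean signal ± SD over 3 rats was 10417 ± 1117 in the thymus, 7749 ± 1042 in bone marrow, 5965 ± 347 in the lymph node - mesenteric, 5912 ± 1036 in the lymph node - cervical and 5014 ± 316 in the spleen. Among the intestinal organs it was 3083 ± 118 in the jejunum, 2891 ± 208 in the duodenum, 2743 ± 462 in the ileum, 2610.02 ± 76.1 in the cecum, 2544 ± 535 in the colon and 2464 ± 187 in the rectum. Among the reproductive organs it was 5831 ± 433 in the testis, 2033 ± 148 in the prostate_ventral, 1597 ± 233 in the prostate_other, 1481 ± 35.2 in the seminal vesicle and 1444 ± 181 in the epididymis. The lymphoid or hematopoietic organs and the testis lay above every other organ.

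Among the glands, miR-16 was 1669 ± 134 in the thyroid gland, 1502 ± 234 in the mandibular gland, 1413 ± 184 in the adrenal gland, 1381 ± 78.7 in the sublingual gland, 1309 ± 76.7 in the pituitary gland, 901 ± 66.9 in the harderian gland, 876 ± 189 in the parotid gland and 484 ± 56.7 in the pancreas. In nervous tissue miR-16 was 2053 ± 112 in the ischial nerve, 1953 ± 149 in the cerebellum, 1369.9 ± 169.5 in the optic nerve, 1351 ± 290.4 in the spinal cord_pars lumbalis, 1260.5 ± 57.2 in the eyeball, 1193 ± 162 in the spinal cord_pectoral, 1153 ± 126 in the spinal cord_cervical, 1023 ± 164 in the medulla oblongata, 1005 ± 373 in the cerebrum_hippocampus, 925 ± 37.2 in the cerebrum_cerebral cortex and 692 ± 75.1 in the cerebrum_thalamus. The ischial nerve and the cerebellum were the highest of the nervous system.

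In the muscle system miR-16 was 1894 ± 172 in skin, 1771 ± 196 in the stomach_glandular, 1722 ± 94.4 in the vein, 1652 ± 409 in the soleus muscle, 1646 ± 429 in the gastrocnemial muscle, 1415 ± 59.2 in the interseptum, 1294 ± 288 in the femoris muscle, 1211 ± 360.2 in the aorta, 1203 ± 63.5 in the bladder, 1198 ± 94.1 in the heart_atrium, 1151 ± 61.7 in the esophagus, 1133 ± 65.4 in the heart_interventricular septum, 1092 ± 219 in the tongue and 1090.5 ± 107 in the stomach_anterior. Outside these systems it was 2159 ± 70.8 in brown adipose tissue, 1876 ± 199.8 in the lung, 1686 ± 210.1 in the kidney, 1676 ± 193 in the trachea, 1608 ± 165.5 in the liver and 1439 ± 67.6 in white adipose tissue. Of 54 neighbours in the order, 6 had no overlap, namely thymus and bone marrow, bone marrow and lymph node - mesenteric, testis and spleen, spleen and jejunum, rectum and brown adipose tissue, and cerebrum_thalamus and pancreas. The other 48 overlapped.

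miR-195, of the other cluster, had a different order, with the cerebellum at the top and the rectum at the bottom. It was 2015, 1998 and 2179 in the cerebellum and 42.8, 41.8 and 45 in the rectum. In the thymus it was 216, 211 and 150.3, so that the organ with the highest miR-15b and miR-16 was the 50th of the 54 organs other than the pancreas in mean miR-195 signal, and the 49th in mean log2 signal. No other perfused array reached the cerebellum arrays, and none was as low as the rectum arrays (0 of 162 in each case). The difference from the mean of the other organs was 2.31 on the log2 scale (SE 0.17, adjusted p = 2.36e-25) in the cerebellum, 1.67 in skin and 1.60 in white adipose tissue, and it was -1.57 in the stomach_glandular and -3.37 on the log2 scale (SE 0.17, adjusted p = 5.66e-38) in the rectum. White adipose tissue was at 2.57 with the 75th percentile over all miRNAs and at 2.53 in the authors' values. In the pancreas miR-195 was not well above background on any of the 3 arrays, so that only a bound can be given, and the mean of the other organs was at least 2.17-fold higher (measured log2 means 8.78 and 6.95, adjusted p = 4.66e-19 in limma). With a normexp background the direction turned (0.76). Such a bound sets the other organs against the lowest detected signal on each pancreas array, or against its own signal where that is higher.

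Leaving the pancreas aside, the organ means of miR-195 ran from 43.2 to 2064. Among the lymphoid or hematopoietic organs, its mean signal ± SD over 3 rats was 687 ± 81.4 in the spleen, 596 ± 59.1 in the lymph node - mesenteric, 532 ± 54.3 in the lymph node - cervical, 199 ± 72.5 in bone marrow and 192 ± 36.3 in the thymus. Among the intestinal organs it was 487 ± 139 in the cecum, 299.5 ± 84.5 in the colon, 289 ± 98.2 in the jejunum, 194.99 ± 55.5 in the ileum, 194 ± 99.8 in the duodenum and 43.2 ± 1.66 in the rectum. Among the reproductive organs it was 835 ± 68.3 in the testis, 757 ± 121 in the epididymis, 495 ± 11.4 in the prostate_other, 361 ± 12.5 in the seminal vesicle and 202 ± 39.7 in the prostate_ventral. Within the intestine the cecum was the highest and the rectum the lowest, and the duodenum had the widest spread of any organ, with 80.3, 233 and 268 in rats 4, 5 and 6 (CV 51.5%).

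Among the glands, miR-195 was 540.4 ± 14 in the thyroid gland, 376 ± 51.9 in the mandibular gland, 373 ± 118 in the parotid gland, 361 ± 59.7 in the harderian gland, 351 ± 61.6 in the sublingual gland, 339 ± 40.9 in the adrenal gland and 179 ± 4.71 in the pituitary gland. For the nervous system the values of miR-195 were 2064 ± 99.9 in the cerebellum, 849 ± 57.6 in the ischial nerve, 351 ± 122 in the spinal cord_pars lumbalis, 315 ± 38 in the eyeball, 292 ± 7.49 in the cerebrum_cerebral cortex, 285 ± 115 in the optic nerve, 264 ± 45 in the spinal cord_pectoral, 258 ± 33.8 in the medulla oblongata, 234 ± 16 in the spinal cord_cervical, 228 ± 44.7 in the cerebrum_hippocampus and 189 ± 22.7 in the cerebrum_thalamus. The cerebellum and the ischial nerve stood above the other 9 organs of the nervous system, which lay under 400.

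In muscle, skin and vessels miR-195 was 1344 ± 203 in skin, 1164 ± 58.1 in the soleus muscle, 1089 ± 123 in the vein, 984 ± 303 in the aorta, 970.1 ± 234 in the gastrocnemial muscle, 943 ± 124 in the interseptum, 824 ± 128 in the femoris muscle, 591 ± 55.1 in the heart_atrium, 577 ± 77.5 in the bladder, 572 ± 30.6 in the heart_interventricular septum, 522 ± 14.6 in the stomach_anterior, 490.4 ± 101 in the tongue, 422 ± 74.2 in the esophagus and 152 ± 49.5 in the stomach_glandular. The remaining organs had 1270.2 ± 43 in white adipose tissue, 1115 ± 71.7 in the lung, 882 ± 68 in brown adipose tissue, 813 ± 40.00 in the trachea, 745 ± 105 in the liver and 359.6 ± 71.6 in the kidney. The skin, soleus muscle, vein, aorta and limb muscles lay above the heart, and the stomach_glandular was the lowest of this system. With the pancreas left out, 2 of 53 neighbours had no overlap, cerebellum and skin at the top and stomach_glandular and rectum at the bottom.

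miR-497, the partner of miR-195, followed it closely. It was 1296, 1223 and 1359 in the cerebellum, 1156, 935 and 1022 in skin and 32.2, 37.5 and 40.7 in the rectum. In the thymus, the lowest organ after the rectum, it was 130.2, 132 and 102. As for miR-195, the cerebellum arrays lay above and the rectum arrays below all 162 others. Against the mean of the other organs miR-497 differed by 1.91 on the log2 scale (SE 0.16, adjusted p = 1.84e-20) in the cerebellum, by 1.58 in skin and 1.57 in white adipose tissue, by -1.54 in the stomach_glandular, by -1.58 in the thymus and by -3.33 on the log2 scale (SE 0.16, adjusted p = 5.3e-38) in the rectum. White adipose tissue was at 2.54 with the 75th percentile over all miRNAs and at 2.46 in the authors' values. With a normexp background the stomach_glandular was at -0.97 and the thymus at -1.02.

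The organ means of miR-497 ran from 36.8 to 1293 with a median of 373. Among the lymphoid or hematopoietic organs, its mean signal ± SD over 3 rats was 582 ± 60.1 in the spleen, 485 ± 57.4 in the lymph node - mesenteric, 442 ± 42.4 in the lymph node - cervical, 389.7 ± 52.1 in bone marrow and 121 ± 16.5 in the thymus. Among the intestinal organs it was 426 ± 118 in the cecum, 272 ± 85.5 in the colon, 255 ± 81.3 in the jejunum, 171 ± 92.2 in the duodenum, 166 ± 49 in the ileum and 36.8 ± 4.31 in the rectum. Among the reproductive organs it was 728 ± 65.4 in the testis, 715 ± 51 in the epididymis, 411 ± 23.2 in the prostate_other, 294 ± 6.84 in the seminal vesicle and 167 ± 32 in the prostate_ventral. The duodenum again spread the most over rats (CV 54.0%), and bone marrow, at 412, 330.1 and 427, lay nearer the lymph nodes than the thymus.

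Among the glands, miR-497 was 373 ± 14.9 in the thyroid gland, 367 ± 68.5 in the parotid gland, 335 ± 39.8 in the adrenal gland, 324 ± 50.2 in the mandibular gland, 281 ± 45 in the harderian gland, 278 ± 31 in the sublingual gland, 264 ± 17.1 in the pancreas and 143 ± 8.27 in the pituitary gland. The nervous system gave 1293 ± 68.1 in the cerebellum, 601 ± 60.4 in the ischial nerve, 273 ± 102 in the spinal cord_pars lumbalis, 246 ± 35.3 in the eyeball, 235 ± 8.89 in the cerebrum_cerebral cortex, 213 ± 31.4 in the spinal cord_pectoral, 209.7 ± 74.4 in the optic nerve, 194 ± 14.3 in the medulla oblongata, 189 ± 10.5 in the spinal cord_cervical, 182 ± 40.6 in the cerebrum_hippocampus and 169.9 ± 7.71 in the cerebrum_thalamus. In the pancreas miR-497 was detected in 2 of 3 rats, so its place in the order is uncertain.

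For the muscle system the values of miR-497 were 1038 ± 112 in skin, 828 ± 94.6 in the soleus muscle, 768 ± 129 in the vein, 748 ± 232 in the gastrocnemial muscle, 742 ± 229 in the aorta, 688 ± 107 in the interseptum, 643 ± 84.4 in the femoris muscle, 443 ± 42.2 in the bladder, 395 ± 26 in the stomach_anterior, 388 ± 41.2 in the heart_atrium, 381 ± 20.1 in the heart_interventricular septum, 378 ± 82.7 in the tongue, 327 ± 57 in the esophagus and 129 ± 48.4 in the stomach_glandular. In the other organs it was 1027 ± 104 in white adipose tissue, 798 ± 49.2 in the lung, 707 ± 63.6 in brown adipose tissue, 629 ± 20.5 in the trachea, 608 ± 89.9 in the liver and 296 ± 57.4 in the kidney. Neighbours without overlap were again 2 of 54, cerebellum and skin, and thymus and rectum.

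**Figure D1:**
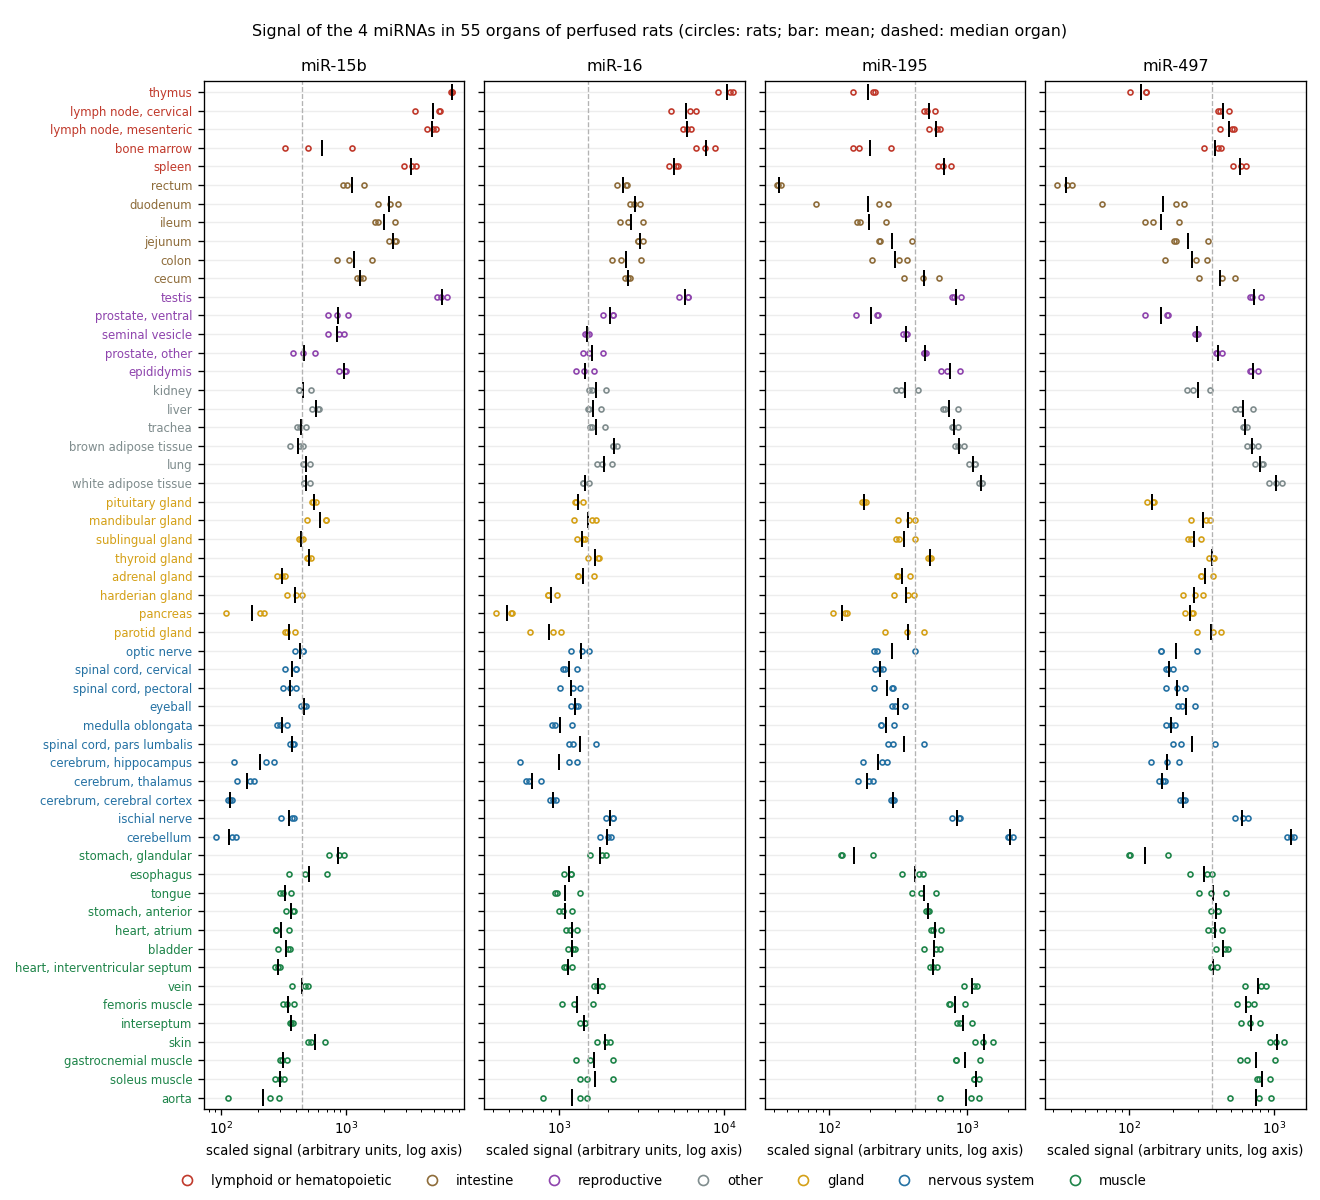
Scaled signal in arbitrary units on a log axis for each of the 4 miRNAs, with the 55 organs of perfused rats in rows, coloured by organ system, circles for the 3 rats, a black bar for their mean and a dashed line for the median organ. miR-15b and miR-16 are highest in the thymus (means 6955 and 10417), miR-195 and miR-497 in the cerebellum (2064 and 1293), and the last pair is lowest in the rectum (43.2 and 36.8).

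The limma F test over 55 organs called all 4 members (adjusted p from 2.09e-50 for miR-497 to 8.10e-68 for miR-15b), where 99.7% of the 345 miRNAs tested were called. Against the mean of the other organs, miR-15b was higher in 15 organs and lower in 28, miR-16 was higher in 15 and lower in 26, miR-195 was higher in 21 and lower in 19, and miR-497 was higher in 18 and lower in 20. Over all miRNAs and organs together, 23.4% of the contrasts were called higher and 50.6% lower. By organ, 27.8% of the miRNAs were called higher in the thymus, 39.1% in the testis, 22.6% in the lymph node - mesenteric, 29.9% in bone marrow, 29.3% in the cerebellum, 14.8% in skin and 15.1% in white adipose tissue. Called lower were 51% in the thymus, 46.4% in the cerebellum, 44.3% in the cerebrum_cerebral cortex, 40.3% in the cerebrum_thalamus, 51.3% in the parotid gland, 46.7% in the pancreas, 49.6% in the stomach_glandular and 58.3% in the rectum. The counts of the members moved with the scaling. With the 75th percentile over all miRNAs, miR-15b was higher in 21 and lower in 16 organs and miR-16 higher in 22 and lower in 17, and in the authors' normalised values the counts were 16 and 15 for miR-15b and 19 and 15 for miR-16. Quantile normalisation gave 18 and 20 for miR-16. The split over all miRNAs moved too, from 4435 higher and 9597 lower calls to 5352 and 6631 in the authors' values and to 3688 and 3487 with a normexp background.

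The SD of the 55 organ means on the log2 scale was 1.35 for miR-15b, 1.05 for miR-195, 0.96 for miR-497 and 0.86 for miR-16, with a median of 1.14 over the 144 miRNAs detected on at least 50% of the perfused arrays. Within organs the residual SD was 0.27, 0.29, 0.28 and 0.20 in the same order, with a median of 0.29. By this SD miR-16 was at rank 111 of 144 and miR-15b at rank 59. miR-16 was itself part of the scaling, and its SD was 0.90 (rank 106) when it was left out of it, 0.94 (rank 93) with quantile normalisation, 1.11 (rank 111) in the authors' values and 1.24 (rank 81) with the 75th percentile over all miRNAs. With that percentile the SD was 1.54 for miR-15b, 1.63 for miR-195 and 1.49 for miR-497, with a median of 1.32. In the authors' values it was 1.46, 1.64 and 1.39 in the same order, with a median of 1.61. The order of miR-15b and miR-195 and their side of the median thus depended on the scaling.

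Organ systems were compared next, each as the mean of its organs minus the mean of all organs outside it, on the log2 scale. The lymphoid or hematopoietic organs were higher in miR-15b by 2.72 (SE 0.073, adjusted p = 4.57e-64) and in miR-16 by 2.18 (SE 0.054, adjusted p = 5.05e-67), with 29.9% of 345 miRNAs called higher and 61.2% lower there. In the same organs miR-195 differed by -0.20 (SE 0.077, adjusted p = 0.0144) and miR-497 by 0.02 (SE 0.076, adjusted p = 0.796). The small difference of miR-195 was no longer called under 5 other scalings or backgrounds or without rat 5 or rat 6. The values of miR-195 and miR-497 are means over organs that went opposite ways. miR-195 was called higher in the spleen (0.69) and lymph node - mesenteric (0.48) and lower in bone marrow (-1.19) and the thymus. miR-497 was called higher in the spleen (0.73) and lymph node - mesenteric (0.46) and lower in the thymus (-1.58). In bone marrow miR-15b was not called (0.0054). Leukocyte markers moved with these results. miR-142-3p and miR-142-5p were highest in the thymus, miR-150 in the lymph node - mesenteric and miR-223 in bone marrow. Over 55 organ means the mean log2 level of these 4 markers correlated with miR-15b at 0.73, with miR-16 at 0.80, with miR-195 at 0.014 and with miR-497 at 0.084, and their part in the results was not tested. Fewer cells of a type and less RNA per cell cannot be told apart in such tissue samples.

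In the intestine, where the samples were scraped mucosal epithelium, the clusters went opposite ways. miR-15b was higher by 1.68 (SE 0.067, adjusted p = 3.76e-47) and miR-16 by 0.74 (SE 0.05, adjusted p = 1.45e-27), with 33.9% of the miRNAs called higher. The miR-16 difference was smaller under other scalings, at 0.39 with the 75th percentile over all miRNAs, 0.41 with quantile normalisation and 0.25 in the authors' values. miR-195 differed by -1.28 (SE 0.071, adjusted p = 2.82e-34) and miR-497 by -1.19 (SE 0.07, adjusted p = 3.68e-32), with 57.1% called lower, and a normexp background gave -0.84 and -0.68. The 6 organs were not alike. In the cecum miR-195 (0.15) and miR-497 (0.24) were not called, and the rectum lay far below the rest. With the rectum left out, an alternative added after seeing the data, the differences were -0.85 and -0.75 and were still called. Leukocyte markers were high in the intestine too. In the duodenum, jejunum, ileum, cecum and colon miR-142-3p and miR-142-5p were between the 6th and 10th of 55 organs, and miR-223 was the 3rd in the cecum and the 5th in the duodenum and the 21st in the ileum. In the rectum miR-142-3p and miR-142-5p were the 17th and miR-223 the 51st. In the 6 intestinal organs miR-150 was between the 23rd and 50th. Their part in the levels of miR-15b and miR-16 was not tested.

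In muscle miR-195 and miR-497 were high, with miR-195 higher by 0.86 (SE 0.051, adjusted p = 4.41e-32) and miR-497 by 0.67 (SE 0.05, adjusted p = 1.65e-24), where 17.4% of the miRNAs were called higher. These sizes were 1.80 and 1.61 with the 75th percentile over all miRNAs, 1.77 and 1.52 in the authors' values and 0.59 and 0.44 with a normexp background. miR-15b (-0.83) and miR-16 (-0.46) were called lower in muscle, as were 78.6% of all miRNAs, and this direction rested on the scaling. With the 75th percentile over all miRNAs the differences were 0.11 and 0.49, and they were 0.032 and 0.40 in the values the authors normalised, while the median difference of all 345 miRNAs moved from -0.35 to -0.043 and 0.024, and the split of calls from 60 higher and 271 lower to 132 and 173 and to 143 and 124. Quantile normalisation moved that median by 0.22 and gave 99 higher and 207 lower. Relative to that median, miR-195 was higher in muscle by 1.21 and miR-497 by 1.02, and by 1.84 and 1.65 with the 75th percentile over all miRNAs. The organs of the muscle system were not alike. In the stomach_glandular miR-195 (-1.57) and miR-497 (-1.54) were called lower, and in the esophagus and stomach_anterior neither was called. miR-497 was not called in the heart_atrium (0.14), heart_interventricular septum (0.11) or bladder (0.33) either.

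In the nervous system all 4 members were called lower, with differences of -1.36 (SE 0.052, adjusted p = 7.72e-49) for miR-15b, -0.64 for miR-16, -0.36 for miR-195 and -0.48 for miR-497, with 55.1% of the miRNAs called lower. The sizes depended on the scaling. In the same order they were -2.16, -1.44, -1.16 and -1.28 with the 75th percentile over all miRNAs and -1.97, -1.25, -0.93 and -1.10 in the authors' values. Not every organ of the system shared this. miR-195 and miR-497 were called higher in the cerebellum and in the ischial nerve (1.00 and 0.78 in the nerve), and miR-16 was called higher in the ischial nerve (0.27) and not called in the cerebellum. miR-15b was lower in 10 of the 11 organs and not called in the eyeball. In the glands the 4 members were likewise called lower, between -0.73 for miR-16 and -0.36 for miR-497, with 43.2% called lower, and this range was -1.29 to -0.93 with the 75th percentile over all miRNAs and -0.49 to -0.085 with a normexp background, where miR-497 was not called. The pancreas, with miR-195 detected on 0 of 3 arrays and miR-15b on 1, enters these values. Without it, as added after seeing the data, miR-15b was at -0.45, miR-16 at -0.56, miR-195 at -0.41 and miR-497 at -0.35, all still called. In the reproductive organs miR-15b was higher by 1.10 (SE 0.073, adjusted p = 2.06e-28), where 35.1% were called higher and 49.9% lower. The testis had the highest mean of these organs for all 4 members, but for miR-195 and miR-497 its rats overlapped with those of the epididymis. The miR-15b value rested largely on the testis (3.42), with the epididymis at 0.78, prostate_ventral at 0.62, seminal vesicle at 0.60 and prostate_other at -0.30 (not called). miR-16 (0.32) and miR-497 (0.20) were called higher in the reproductive organs at small sizes. The call of miR-16 was lost with the 75th percentile over all miRNAs (0.0024) and in the authors' values (0.11) and kept with quantile normalisation (0.17) and with scaling without miR-16 (0.35). miR-497 was not called with that percentile (-0.11), in the authors' values (-0.00030), with quantile normalisation (-0.0052) or without rat 6 (0.17). miR-195 was not called (0.14, adjusted p = 0.0880), but was with scaling without miR-16 (0.17, adjusted p = 0.0296). Other scalings moved the median of all miRNAs by -0.48 in the nervous system, -0.33 in the intestine and -0.19 in the glands (authors' values) and by -0.14 in the glands with the 75th percentile over all miRNAs. With that percentile the calls of all miRNAs were split 105 higher and 196 lower in the glands (159 and 149 before), 87 and 198 in the reproductive organs (121 and 172) and 94 and 231 in the nervous system (140 and 190), and a normexp background gave 274 and 28 in the glands, 212 and 26 in the reproductive organs, 67 and 247 in the nervous system and 131 and 46 in the intestine (117 and 197). Organs were fixed terms in these tests, so the errors are those between rats.

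**Figure D2:**
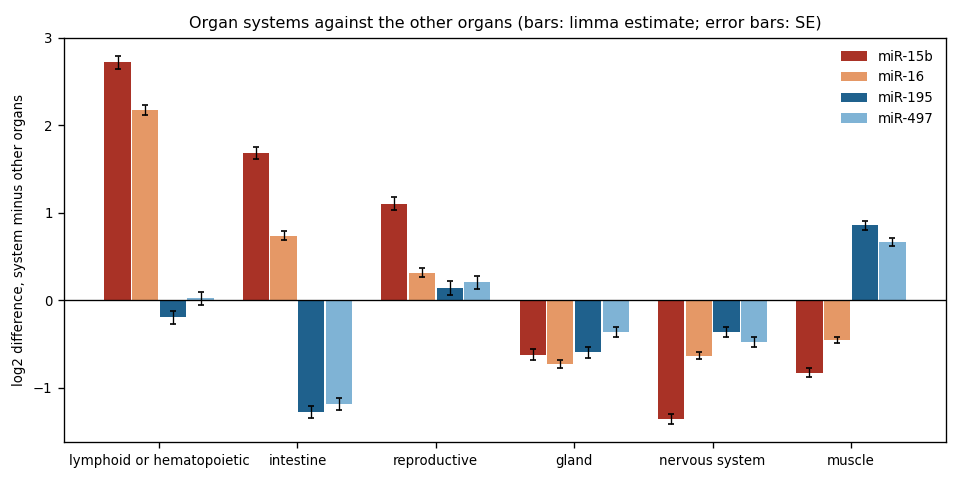
Difference on the log2 scale between the organs of a system and all other organs for each member, as bars from 0 with the SE of the limma estimate. In the intestine miR-15b and miR-16 are at 1.68 and 0.74 and miR-195 and miR-497 at -1.28 and -1.19, and in muscle at -0.83, -0.46, 0.86 and 0.67, where the sign of the first pair turns with the 75th percentile over all miRNAs and in the authors' values.

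To follow the clusters without the scaling, the cluster balance was formed on each array as the mean log2 signal of miR-195 and miR-497 minus that of miR-15b and miR-16. A factor that scales an array cancels in it. Over the 55 organ means the balance still correlated with the log2 75th percentile of the arrays before scaling, at r = 0.29 (rho 0.41). It is given relative to the mean of the 55 organs, since probes differ in brightness and a level of 0 has no other meaning. A high balance therefore means more of the miR-195 and miR-497 cluster than in the mean organ, relative to the other cluster, and not that it supplies most of the seed.

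The balance was highest in the cerebellum (3.05, 3.02 and 3.32 in rats 4, 5 and 6) and lowest in the thymus (-4.36, -4.41 and -4.66). The difference between them was 7.602 log2 units, a 194-fold change in the ratio of the clusters. The median SD over 3 rats was 0.17. After the cerebellum came the aorta (2.10 ± 0.19, mean ± SD, n = 3), soleus muscle (1.84 ± 0.10), white adipose tissue (1.80 ± 0.07) and gastrocnemial muscle (1.57 ± 0.16). The organs nearest the thymus were the rectum (-4.03 ± 0.26), duodenum (-2.64 ± 1.10), ileum (-2.38 ± 0.14) and lymph node - cervical (-2.12 ± 0.23). The duodenum was set apart by rat 4, at -3.88 compared with -2.24 and -1.79 in rats 5 and 6. The cerebrum_hippocampus had the next widest spread, where rat 5 was at 1.18 and rats 4 and 6 at -0.051 and -0.44. On that array miR-15b was 127, compared with 264 and 232, and miR-16 582, compared with 1152 and 1282.

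By system, the mean balance was -2.31 in the lymphoid or hematopoietic organs and -2.18 in the intestine, and all 11 organs of these systems were below the mean organ. It was -0.49 in the reproductive organs, 0.17 in the glands, 0.46 in the nervous system, 1.05 in muscle and 1.00 in the organs outside these systems. In muscle only the stomach_glandular (-1.85 ± 0.43) lay below the mean organ. Among the glands the pituitary gland (-1.07 ± 0.08) was the lowest, and among the reproductive organs the testis (-1.56 ± 0.20) and prostate_ventral (-1.53 ± 0.37) were. In 28 organs all 3 rats were above the mean organ, in 19 all were below and in 8 they fell on both sides. Between neighbours in the order, 3 of 54 had no overlap, cerebellum and aorta, epididymis and cerebrum_thalamus, and rectum and thymus.

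The 4 single differences of a miRNA of one cluster and a miRNA of the other gave nearly the same order, with r of 0.963 to 0.985 with the balance over 55 organs. The cerebellum was highest and the thymus lowest in 2 of them, while miR-195 minus miR-16 was lowest in the rectum (-3.83) and miR-497 minus miR-16 was highest in white adipose tissue (1.79). The cerebellum stayed the highest organ, the aorta the next and the thymus and rectum the lowest under all 13 alternative settings of background, scaling, spot summary, floor and arrays run for the balance, whereas the duodenum went from -2.64 to -0.99 with a normexp background. The 75th percentile over all miRNAs and the scaling without miR-16 could not move the balance, since a factor that scales an array cancels in it.

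**Figure D3:**
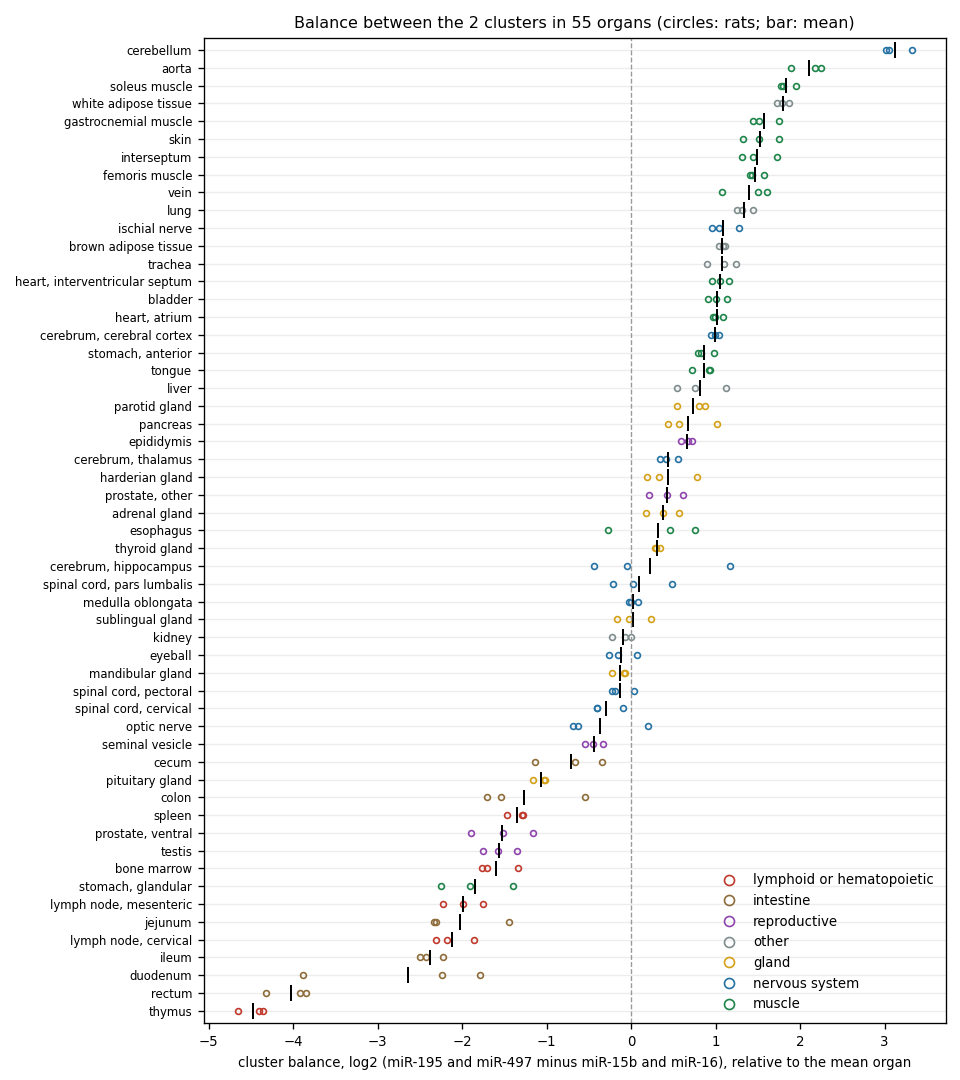
Cluster balance on the log2 scale relative to the mean organ, for the 55 organs in order, with circles for the 3 perfused rats, a bar for their mean and colours for organ systems. The thymus (-4.47) and rectum (-4.03) lie at the lower end and the cerebellum (3.13) at the upper.

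At the level of calls, 7 organs were higher in both miR-15b and miR-16 and lower in both miR-195 and miR-497, which were the thymus, duodenum, jejunum, ileum, colon, rectum and prostate_ventral. Of all 345 miRNAs 27.8%, 34.2%, 31.3%, 31.9%, 26.7%, 18.8% and 17.1% were called higher in these organs, in that order, and 51%, 47.2%, 43.2%, 47.2%, 46.1%, 58.3% and 57.4% lower. In 3 organs, the aorta, femoris muscle and interseptum, the calls were the reverse, where 8.41%, 20.9% and 21.2% of all miRNAs were called higher and 71%, 51.9% and 49% lower. These counts depended on the scaling. With the 75th percentile over all miRNAs 4 organs had the first pattern and 0 the reverse, in the authors' values 2 and 0 and with a normexp background 4 and 2, and the thymus and rectum held it under every alternative run. Leaving out rat 5 left 4 organs with the first pattern and 2 with the reverse, and leaving out rat 4 or rat 6 left 6 and 1. The clusters did not always oppose each other. All 4 members were called higher in the spleen, testis and lymph node - mesenteric (21.2%, 39.1% and 22.6% of all miRNAs), and all 4 lower in 8 organs, where 37.1% to 48.7% of all miRNAs were called lower, of which 7 belonged to the nervous system and the other was the pancreas. In the pancreas miR-195 was detected on 0 of 3 arrays and miR-15b on 1, the miR-195 difference was 0.76 with a normexp background, and the organ then left this group. The pancreas also left it without rat 4 or rat 5. The optic nerve left it with normexp, the 75th percentile over all miRNAs, quantile normalisation and the authors' values, and without rat 4 or rat 5. With the 75th percentile over all miRNAs, 10 organs were higher and 11 lower in all 4. The testis was not among the organs higher in all 4 with that percentile, with quantile normalisation or in the authors' values. The lymph node - mesenteric was not among them with a normexp background or without rat 5.

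Within a cluster the members did not always move together. The difference of miR-16 minus miR-15b, relative to the mean organ, was highest in the cerebellum (2.42, 2.14 and 2.90 in rats 4, 5 and 6) and in bone marrow (1.19, 2.15 and 3.16), and lowest in the testis (-1.41, -1.71 and -1.67) and the lymph node - cervical (-1.32 ± 0.12). Its SD over organs was 0.80. In bone marrow miR-16 was the highest organ after the thymus, whereas miR-15b was not called there (0.0054 on the log2 scale). Both were called, in opposite directions, in 3 organs, the brown adipose tissue, epididymis and ischial nerve.

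miR-195 minus miR-497 varied less, with an SD over organs of 0.30, and 0.23 without the pancreas, where miR-195 was not well above background and the difference has no measured value. Bone marrow stood apart, at -0.83, -1.42 and -1.66. The other 53 organs lay between -0.29 and 0.39. In bone marrow miR-195 was thus called lower (-1.19), whereas miR-497 was not called (0.14). The calls of miR-195 and miR-497 were the same in 49 of 55 organs and opposite in 0, and those of miR-15b and miR-16 were the same in 40. The erythroid markers miR-451 and miR-144 were highest in bone marrow and miR-144* in the spleen, with miR-451 at 24324, 20148 and 32589 in the 3 rats of bone marrow, and their part in the bone marrow values was not tested.

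Over the 55 organ means, which share the scaling of their arrays, the log2 signals of miR-195 and miR-497 correlated at r = 0.96 (rho 0.95) and those of miR-15b and miR-16 at r = 0.83 (rho 0.75), compared with a median of 0.033 over all pairs of 144 miRNAs. Without the 2 organs farthest from the median they were 0.95 and 0.78. Between the clusters the 4 correlations ran from -0.16 to 0.040. These depended on the scaling, and reached 0.31 to 0.60 with the 75th percentile over all miRNAs and 0.21 to 0.56 in the authors' values. Within single rats miR-195 and miR-497 correlated at 0.95 to 0.98 and miR-15b and miR-16 at 0.77 to 0.87, and within scan days at 0.94 to 0.97 and 0.72 to 0.94.

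The deviations of single arrays from their organ means, which hold no difference between organs, gave 0.93 for miR-195 and miR-497, 0.54 for miR-15b and miR-16, and 0.021 to 0.40 between the clusters, with a median of 0.13 over all pairs. By the rule of highest r over organs, miR-15b was most like miR-19a (0.841), miR-20b-5p (0.833), miR-106b (0.833), miR-16 (0.830) and miR-20a (0.825). The miRNAs most like miR-16 were miR-106b (0.842), miR-142-3p (0.835), miR-15b (0.830), miR-20b-5p (0.795) and miR-17-5p (0.795). After its partner at 0.960, miR-195 was most like miR-126 (0.613), an endothelial miRNA, miR-322 (0.563), miR-199a-5p (0.534) and miR-214 (0.533). For miR-497 the same rule gave miR-126 (0.618), miR-214 (0.599), miR-199a-5p (0.589) and miR-126* (0.549) after miR-195. For miR-195 and miR-497 the gap from the partner to the next miRNA was thus wide, whereas miR-15b and miR-16 had neighbours outside the cluster at least as close.

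miR-16 and miR-195, identical at 19 of 21 positions, correlated at 0.031 (0.60 with the 75th percentile over all miRNAs), and the thymus, highest in miR-16, was low in miR-195. Their deviations from organ means correlated at 0.40. The cerebellum, highest in miR-195, was also highest in miR-16 minus miR-15b (2.49 relative to the mean organ). What cross-hybridisation added to any of these values was not tested. The difference of miR-16 minus miR-15b correlated with miR-195 at 0.29 and with miR-497 at 0.32 over 55 organs, and at 0.17 and 0.22 without the rectum and cerebellum.

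**Figure D4:**
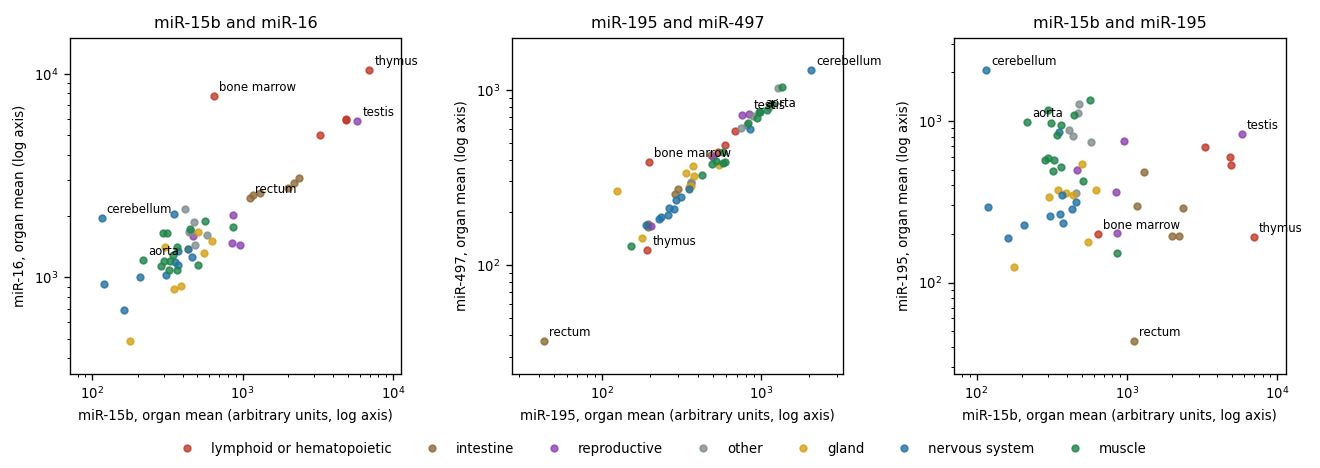
Organ means of scaled signal for miR-15b and miR-16, miR-195 and miR-497, and miR-15b and miR-195, on log axes in arbitrary units, with a point for each of 55 organs coloured by system. The points of miR-195 and miR-497 lie close to a line (r = 0.96), with bone marrow beside it, those of miR-15b and miR-16 scatter more (0.83), and those of miR-15b and miR-195 follow no line (-0.15).

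In the scraped mucosa of the intestine miR-195 and miR-497 moved with the smooth muscle markers miR-143 and miR-145, and with the endothelial marker miR-126. How much muscle coat each scraping held was not tested. In the rectum miR-143 was 165.3, 181 and 363, the lowest organ but one of 55, and miR-145 was at the floor of 10.8 in all 3 rats. In the duodenum rat 4, which had the lowest miR-195 of that organ (80.3), also had the lowest miR-143 (617.8, compared with 1584 and 2309). The ileum did not follow this, since its rat 4 had the lowest miR-195 (159) and the highest miR-143 of the 18 intestinal arrays (6476), and rat 6, with the lowest miR-143 of that organ (1618), had a miR-195 of 167. Over the 18 intestinal arrays the mean log2 level of miR-143 and miR-145 correlated with miR-195 at 0.87 and with miR-497 at 0.86. Within the 6 organs, after their means were taken off, it did so at 0.75 and 0.73. For miR-15b the values were 0.21 and -0.24, and for miR-16 0.15 and -0.072. These are descriptions of 18 arrays from 3 rats. The endothelial marker miR-126 was also lowest in the rectum of all organs, at 62.5, 53.5 and 48.8. In the ileum miR-126 was 175, 269 and 192 in rats 4, 5 and 6, beside a miR-195 of 159, 259 and 167. Its rats had the same order as those of miR-195 in the duodenum, jejunum, ileum, cecum and colon, but not in the rectum. Its correlation over these 18 arrays was not computed. The part of the cells that carry these markers in the level of miR-195 and miR-497 was not tested.

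**Figure D5:**
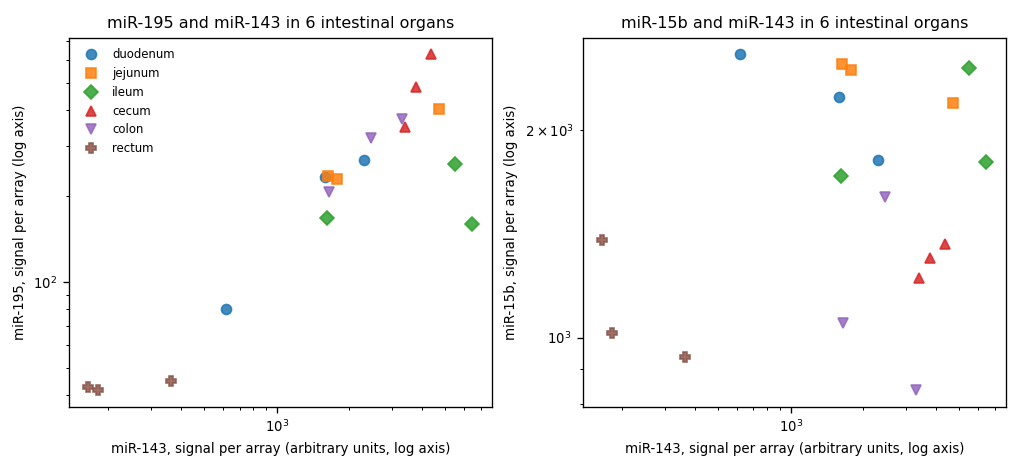
Signal of miR-195 (left) and miR-15b (right) against that of the smooth muscle miRNA miR-143, in arbitrary units on log axes, for 18 arrays of 6 intestinal organs marked by symbol. The rectum arrays are lowest in both miR-143 (165.3 to 363) and miR-195 (41.8 to 45.0), whereas the highest miR-195 is in the cecum (628) and the highest miR-143 in the ileum (6476, with a miR-195 of 159).

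Across all organs the endothelial markers, miR-126 and miR-126*, correlated with miR-195 at 0.58 and miR-497 at 0.59, and with miR-15b and miR-16 at -0.13 and 0.020. For the 4 striated muscle markers the values were 0.39 and 0.35, and -0.32 and -0.30. The 4 epithelial markers, miR-200a, miR-200b, miR-200c and miR-141, correlated with miR-195 at -0.42, with miR-497 at -0.40, with miR-15b at 0.29 (rho 0.55) and with miR-16 at 0.00023. They were detected on all 3 arrays of each of the 6 intestinal organs, where miR-200a ran from 1221 in the cecum to 9774 in the rectum, and the duodenum was the highest of all organs in miR-141 and the rectum the 2nd in miR-200a. Their part in the intestinal differences was not tested. The cerebellum, the organ with the most miR-195 and miR-497, was the 46th of 55 in miR-126, the 51st in miR-126*, the 53rd in miR-143, the 55th in miR-142-3p and miR-223 and the 27th in miR-150. miR-145 and miR-142-5p were at the floor there, as in other organs, and have no order. Its neural markers miR-124 and miR-9* were the highest of all organs, and miR-9 was the 3rd. Of the striated muscle markers there, miR-206 was the 12th (75.9 to 86.7) and miR-133b the 34th, and miR-1 and miR-133a were at the floor.

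miR-322, encoded on the X chromosome, carries the same seed. It was detected on 173 of 180 arrays, and was highest in the adrenal gland (2666, 2493 and 2062 in rats 4, 5 and 6). The lung (926 ± 92.4), brown adipose tissue (806 ± 78.6), testis (597 ± 47.0) and heart_atrium (524 ± 7.11) followed. The adrenal gland arrays lay above those of all other organs, and in this gland miR-195 and miR-497 were not called. In the intestine miR-322 differed by -1.97 log2 units (SE 0.080, adjusted p = 3.63e-46) and in muscle by 0.85 (SE 0.057, adjusted p = 1.10e-27), the same directions as miR-195 and miR-497, with which it correlated at 0.56 and 0.55 over organs. In the cerebellum, however, miR-322 was 38.8, 47.3 and 28.9, the 49th of 55 organs. miR-503, which lies beside miR-322, was detected on 29 of 180 arrays, with its highest organ mean at 26.5 in brown adipose tissue. The passenger strands miR-15b*, miR-16*, miR-195* and miR-497* were not detected on any array (0 of 180 each).

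Perfusion, which asks how far blood left in an organ sets its profile, was compared in 5 organs. In the lung miR-15b was 452, 462 and 513 in perfused rats 4, 5 and 6 and 537, 554 and 679 in rats 1, 2 and 3, without overlap, and this was the largest difference of the 20 member contrasts (-0.31 on the log2 scale, SE 0.19, adjusted p = 0.944 in limma, exact permutation p = 0.1, the smallest that 3 against 3 rats allow). In the other 19 contrasts the rats overlapped. Over all 191 miRNAs and 5 organs, 4.92% of contrasts had no overlap, and limma called 0% (0 of 955), with 34 at an unadjusted p under 0.05, of which 0 were members. The exact test could not pass 0.05 in this design. From the same organs the study reported that the blood cell miRNAs miR-451 and miR-144 were evident without perfusion and not with it. With 3 against 3 rats, a lack of calls does not show that perfusion changed no miRNA. Over the 5 organs together, the perfused minus not perfused difference was -0.085 (SE 0.13) for miR-15b, -0.027 (SE 0.075) for miR-16, -0.024 (SE 0.12) for miR-195 and -0.062 (SE 0.12) for miR-497, each at an adjusted p of 1. The sign of these small values changed when rat 3 was left out. The interaction of perfusion and organ was not called for any member (adjusted p of 1 each).

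The cluster balance of perfused and not perfused rats overlapped in each of the 5 organs. In the liver the perfused mean was 0.81 and the not perfused mean 0.80, in the kidney -0.098 and -0.043, in the lung 1.34 and 1.22, in the heart_atrium 1.01 and 1.03, and in the heart_interventricular septum 1.05 and 1.04. All 15 not perfused arrays and the 5 arrays of rat 4 were scanned on the first scan day and the other perfused arrays later, and within that day the 20 differences, of 1 array against 3, ran from -0.38 to 0.29.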

How the data were processed

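Total RNA of 180 samples, 55 organs of 3 saline-perfused rats and 5 organs of 3 rats that were not perfused, was measured on 1-colour rat miRNA arrays of Agilent. The deposited values were spot intensities that the authors extracted with Agilent Feature Extraction 10.7.3 (per the submitters' processing notes), background-subtracted and not scaled between arrays. The authors also deposited a table of linear intensities that they had scaled to the 75th percentile of each array, used as an alternative.

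Outlier spots and controls were left out, and the processed intensities of all spots of a miRNA were averaged. Each array was divided by the 75th percentile of 37 miRNAs detected on all arrays and multiplied by the mean of these percentiles over arrays (2117.7). Signals were floored at 10.83 and taken to log2. A miRNA was tested over organs when it was detected on all 3 arrays of at least 1 organ (345 miRNAs). Organs, systems and perfusion (191 miRNAs) were compared with limma 3.58.1 in R 4.3.3 (lmFit and eBayes), two-sided, with p-values adjusted by Benjamini-Hochberg over all miRNAs and calls at an adjusted p under 0.05. Exact permutation tests were run in scipy 1.17.1. The script was tested on simulated data. Signals of different miRNAs were subtracted from each other only as differences given relative to the mean organ. The precision is limited by 3 arrays per group.

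Each rat number is 1 animal, so the numbers pair the organs. Deviations from organ means correlated on average at 0.051 to 0.096 between organs of the same rat, compared with -0.035 between different rats.

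The members, the marker lists and the organ systems were chosen with earlier results of these data known. Named were the members, miRNAs of the same or a near seed, the passenger strands, the 5 miRNAs most like each member, the 3 highest and 3 lowest organs of each member and the 5 highest and lowest of the balance. Organs named for the differences within a cluster or for a wide spread of rats were chosen after their values were seen. Of the alternatives tried, scaling without miR-16, the normexp background on the median signal and the systems without the pancreas or the rectum were chosen after seeing the data.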

Additional observations from a re-analysis of the deposited data

How the results depend on the processing

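Over 80 results, 1298 values were recomputed, of which 1223 kept their direction and call, or their size. Some of these could not change, such as the balance with the 75th percentile over all miRNAs or with scaling without miR-16. The 24 organ contrasts named were chosen as the highest and lowest organs of each member in these data, which favours a kept direction. They kept direction and call under every alternative run, except miR-195 in the pancreas, where a normexp background gave 0.76. Their sizes were less stable. Of these 24 differences 10 moved by over 1.5 times under at least 1 alternative, as did 20 of the 24 differences between organ systems. miR-16 in the pancreas (-1.86) ran from -4.54 to -0.67, miR-195 in white adipose tissue from 1.26 to 2.57 and miR-497 there from 1.23 to 2.54, and miR-497 reached -1.02 in the thymus and -0.97 in the stomach_glandular with normexp. The 75th percentile over all miRNAs gave 16 organs lower for miR-15b and 17 for miR-16, muscle differences of 0.11 and 0.49, reproductive differences of -0.18 for miR-195 and -0.11 for miR-497, and perfusion differences of 0.011 for miR-16 and 0.014 for miR-195. The authors' values gave 15 organs lower for miR-15b and 15 for miR-16, 0.032 and 0.40 in muscle, -0.023 and -0.00030 in the reproductive organs, and 0.048, 0.051 and 0.013 for the perfusion of miR-16, miR-195 and miR-497. Quantile normalisation gave -0.0088 and -0.0052 in the reproductive organs and -0.017 for miR-497 in the lymphoid or hematopoietic organs. miR-497 was no longer called lower in the glands with a normexp background (-0.085). The cause was not tested.

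The correlation of miR-15b with miR-195 became 0.33, 0.11 and 0.29 and that with miR-497 0.31, 0.053 and 0.21 with the 75th percentile over all miRNAs, quantile normalisation and the authors' values. That of miR-195 and miR-497 was 0.976 with normexp, 0.985 with the 75th percentile over all miRNAs and 0.914 with the scanner's total signal. The range of the balance was 6.60 with normexp and 7.88 with quantile normalisation.

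Without each rat in turn, the perfusion differences ran from -0.23 to 0.014 for miR-15b, -0.096 to 0.038 for miR-16, -0.15 to 0.065 for miR-195 and -0.18 to 0.035 for miR-497, and the range of the balance from 7.41 to 7.70. With rat as a replicate block, every named organ or system contrast it was run for kept its call, and organs called lower went from 19 to 21 for miR-195 and stayed at 28 for miR-15b, 26 for miR-16 and 20 for miR-497. Normexp on the mean signal was not run, since the median signal was used in its place. The counts of opposite calls by cluster that depended on the scaling are given beside them. Values in the pancreas, whose arrays were the dimmest, are limited by signal over background.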
